A study of Oryctolagus cuniculus with 16 samples.

Results

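Bone-forming cells of the femoral head were followed through 10 identity genes of osteoblasts and osteocytes, *RUNX2*, *SP7*, *ALPL*, *IBSP*, *BGLAP*, *DMP1*, *PHEX*, *MEPE*, *SOST* and *FGF23*. They were found by their symbols among the 20255 genes of the authors' table, and all 10 were listed once, as mRNAs. Total RNA of femoral head tissue was sequenced in 5 rabbits with a surgical model of Perthes disease and in 3 control rabbits labelled wild type. In the model the hip of 8-week-old wild-type rabbits was opened, the femoral neck was tied with a suture, and the ligamentum teres was cut to stop the blood flow to the epiphysis. The labels give the disease as a genotype although it is surgical, and neither the age of the controls, a sham operation nor the time from surgery to sampling is given in the sources used here. Replicates are separate rabbits, numbered by the codes in their labels.

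Osteoblasts arise from stromal precursors under the transcription factor *RUNX2* and, after it, *SP7* (osterix). They lay down collagen, express the phosphatase *ALPL*, which frees phosphate for mineral, and secrete the mineral-binding proteins *IBSP* (bone sialoprotein) and *BGLAP* (osteocalcin). Those that become buried turn into osteocytes, which express *DMP1*, *PHEX* and *MEPE*, regulators of mineral and phosphate, and the hormone-like products *SOST* (sclerostin), an inhibitor of Wnt signaling, and *FGF23*, which lowers blood phosphate. When the blood supply of a femoral head fails, the bone and marrow cells die, and the dead bone is resorbed and built again by invading tissue.

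The libraries held 26757087 to 29461482 counts. Values are given as CPM, the count of a gene relative to the library's total after scaling by the TMM method, and 1 count was worth 0.0333 to 0.0374 CPM. *FGF23* had 27 to 1421 counts in a library, and each of the other 9 genes had at least 371. Both bone and cartilage were present in every library, with the bone collagen gene *COL1A1* at 44666 to 143897 CPM and the cartilage collagen gene *COL2A1* at 29008 to 116594 CPM. Markers of skeletal muscle, of which only 5 of 9 were listed in the authors' table, summed to at most 61.7 CPM. In a principal component analysis of all tested genes, Perthes rabbit 4 stood apart on the second component at -78.4, with the other 7 rabbits between -7.51 and 27.5. Because RNA of femoral head tissue was sequenced in bulk, fewer cells of a type and less RNA per cell cannot be told apart.

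None of the 10 genes was called higher or lower in the Perthes rabbits. Of the 15305 genes tested with edgeR's quasi-likelihood test, 6.21% were called higher and 8.86% lower at an adjusted p below 0.05 (Benjamini-Hochberg over all tested genes). The log2 fold change (Perthes against control) was above 0 for 5 of the genes and below 0 for the other 5, with a median of -0.040, against 0.025 over all tested genes. Adjusted p-values ran from 0.106 for *IBSP* to 0.929 for *ALPL*. At an unadjusted p below 0.05 there were 2, *IBSP* and *PHEX*, both higher in the Perthes rabbits. The share of all tested genes at an unadjusted p below 0.05 was not computed. Such counts, here and for the lists below, are therefore no result about a set of genes. DESeq2 called 1 of the 10, *IBSP*, and over the 15305 genes it called 1720 higher and 1916 lower. The groups overlapped for all 10 genes, whereas they did not overlap in 11.2% of the tested genes with the Perthes rabbits higher and in 13.9% with them lower. The missing calls do not show equal levels, since 8 of the 10 intervals of 95% confidence held 0, and the narrowest, that of *RUNX2*, still ran from -0.74 to 0.46. With control rabbit 2 left out, 0 genes of the whole table were called, and without control rabbit 1 all calls of the gene lists below were lost but that of 1 macrophage marker. With library totals in place of TMM factors 678 genes were higher and 1705 lower over the table, against 951 and 1356.

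**Figure D1:**
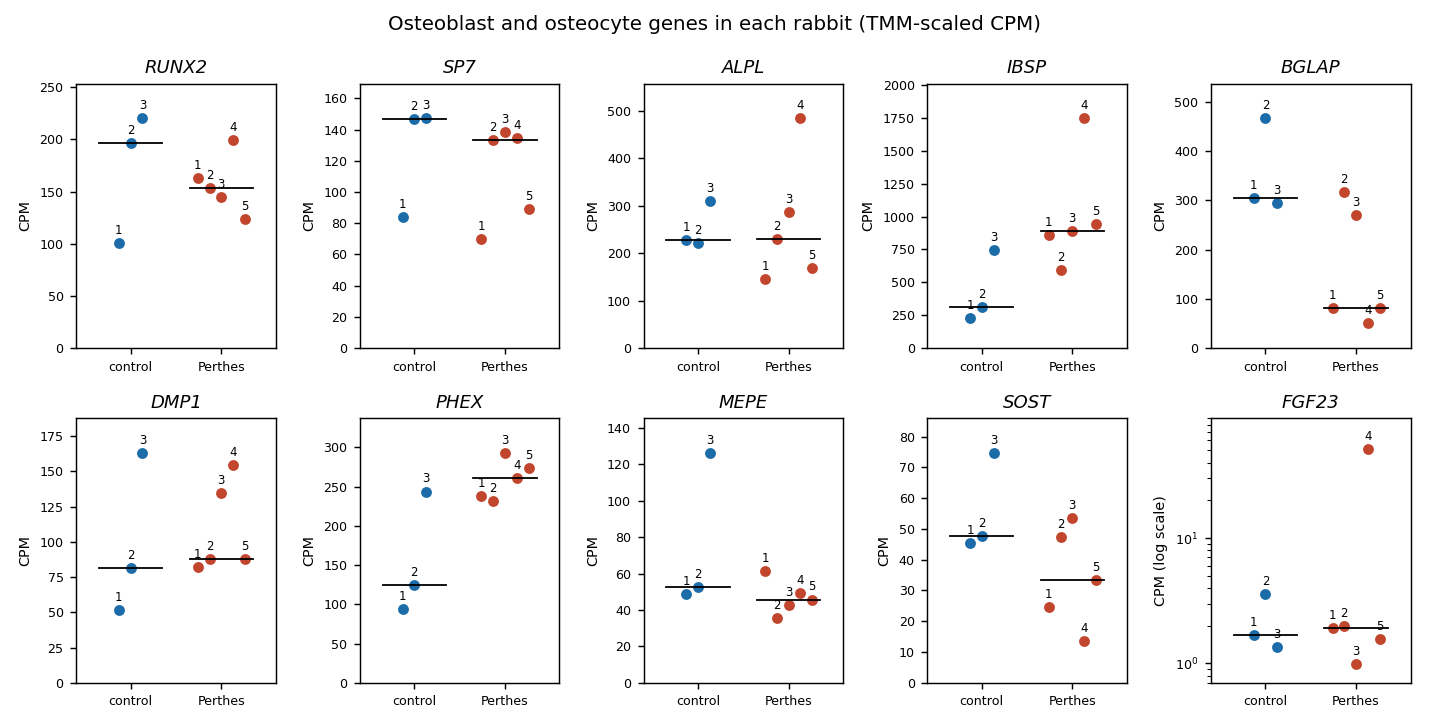
TMM-scaled CPM of each of the 10 genes in 3 control rabbits (blue) and 5 Perthes rabbits (red), numbered by rabbit, with a line at each group's median; the axis of FGF23 is logarithmic and the others start at 0. The groups overlap in every panel, and Perthes rabbit 4 stands alone for FGF23 at 51.7 CPM.

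**Figure D2:**
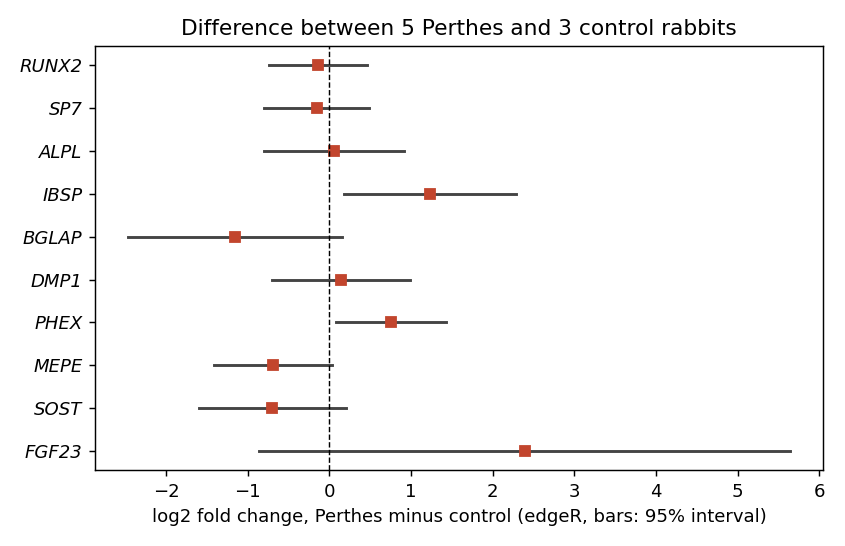
Log2 fold change of each gene, Perthes against control (squares), with its 95% interval (bars) from edgeR. Only the intervals of IBSP and PHEX lie above 0, and that of FGF23 is the widest, from -0.86 to 5.64.

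The transcription factors of the lineage differed between the groups by less than the spread between rabbits. *RUNX2* (gene 100008943) was at 163, 154, 144, 199.8 and 124 CPM in Perthes rabbits 1 to 5 and at 101, 196 and 220.4 CPM in control rabbits 1 to 3. All Perthes values lay between the lowest and the highest control. The fit gave a log2 fold change of -0.14 with an SE of 0.27, a 95% interval of -0.74 to 0.46 and an adjusted p of 0.753 (edgeR). *SP7* (100356871), which acts downstream of *RUNX2*, was at 69.7, 133, 139, 134 and 89.4 CPM in the Perthes rabbits and at 83.7, 147 and 147 CPM in the controls. Perthes rabbits 1 and 5 and control rabbit 1 were the low ones, and the other 5 rabbits lay close together. Its log2 fold change was -0.15 with an SE of 0.29 and a 95% interval of -0.80 to 0.49, and edgeR's adjusted p was 0.741. On the linear scale these intervals run from 0.599-fold to 1.38-fold for *RUNX2* and from 0.574-fold to 1.41-fold for *SP7*.

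Partners and regulators of these factors were also without a call. Of 13 such genes 12 were tested, and edgeR called 0 in either direction, with 4 at an unadjusted p below 0.05, while DESeq2 called 3 higher and 0 lower. Their median log2 fold change was 0.37. Genes of this and the other lists that were not tested were either not listed under their symbol in the authors' table or had too few counts for the test's filter. No group difference is given for them, and those with too few counts still entered the summed CPM of the marker lists. The highest mean CPM was that of *WWTR1*, the transcriptional coactivator TAZ. For *WWTR1* the Perthes rabbits averaged 174 CPM (SD 33.3, n = 5) and the controls 100.05 CPM (SD 49.3, n = 3), with an adjusted p of 0.128 in edgeR.

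The genes of matrix and mineral, *ALPL*, *IBSP* and *BGLAP*, lay differently over the rabbits. In the comparison of pairs below, no difference between them passed. *ALPL* (100341109) was at 147, 230.3, 287, 485 and 169 CPM in Perthes rabbits 1 to 5 and at 228, 222 and 310.0 CPM in the controls. The controls lay inside the range of the Perthes rabbits, which spanned 3.31-fold from rabbit 1 to rabbit 4. Its log2 fold change of 0.058 had an SE of 0.38, a 95% interval of -0.79 to 0.91 and an adjusted p of 0.929 (edgeR). The sign turned to -0.28 without Perthes rabbit 4 and to -0.055 with library totals in place of TMM factors.

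*IBSP* (100344425), which binds hydroxyapatite and integrins, was at 861, 593, 889, 1749 and 940.3 CPM in Perthes rabbits 1 to 5 and at 231, 309.6 and 744 CPM in the controls. Control rabbits 1 and 2 lay below every Perthes rabbit, and control rabbit 3 lay above Perthes rabbit 2 alone. Perthes rabbits averaged 1006 CPM (SD 436, n = 5) and controls 428 CPM (SD 276, n = 3). This is a log2 fold change of 1.23 with an SE of 0.47 and a 95% interval of 0.18 to 2.29, and edgeR gave an unadjusted p of 0.0267 and an adjusted p of 0.106. An exact two-sided permutation test over the 56 divisions of the rabbits into 5 and 3 gave p = 0.0714, where 0.0357 is the smallest possible, and the other 9 genes had p-values from 0.107 to 0.964 in the same exact test. DESeq2 gave an adjusted p of 0.0299, and without control rabbit 3 edgeR gave a log2 fold change of 1.90 with an adjusted p of 0.0343. Over the 14 alternatives tried the adjusted p ran from 0.0299 to 0.297 and the log2 fold change from 0.94 to 1.90.

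*BGLAP* (100340503), a late product of osteoblasts, split the Perthes rabbits. Rabbits 2 and 3 were at 317 and 270.2 CPM, near the controls at 304, 467 and 295 CPM, whereas rabbits 1, 4 and 5 were at 82.0, 50.3 and 80.8 CPM. Perthes rabbit 2 lay above control rabbits 1 and 3, so the groups overlapped. Perthes rabbits averaged 160.0 CPM (SD 124, n = 5) and controls 355 CPM (SD 96.9, n = 3). The log2 fold change of -1.15 had an SE of 0.58, a 95% interval of -2.46 to 0.16 and an adjusted p of 0.206 (edgeR). Over the alternatives the adjusted p ran from 0.0848 to 0.454 and the direction was the same in all of them. Its next protein-coding neighbour in the RefSeq annotation of assembly mOryCun1.1, *PMF1*, fell by 1.30 on the log2 scale (adjusted p = 0.0270 in edgeR). It averaged 6.44 CPM (SD 2.25, n = 5) after surgery and 15.8 CPM (SD 4.37, n = 3) in the controls. Whether reads of the neighbours were shared in the authors' counting was not tested.

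Other genes of the bone matrix were without a call as well. Of 12 genes for osteoblast matrix and secreted proteins, 10 were tested, with 6 above 0 and a median log2 fold change of 0.14. Here edgeR and DESeq2 both called 0, and 0 had an unadjusted p below 0.05. The 2 with the highest mean CPM were the collagen genes *COL1A1* and *COL1A2*, with log2 fold changes of 0.15 (SE 0.46) and 0.20 (SE 0.40) and adjusted p-values of 0.842 and 0.761 in edgeR. *IFITM5*, an osteoblast membrane protein, was at 0.0734 CPM or less in every rabbit and was not tested. Of 12 genes for enzymes, transporters and inhibitors of mineral formation, 10 were tested, 1 was called higher and 1 lower. *ANXA5*, a calcium-dependent membrane-binding protein, rose by 1.37 on the log2 scale (SE 0.31, adjusted p = 0.0218 in edgeR). *CA2*, a carbonic anhydrase of osteoclasts and red cells, fell by 1.71 on the log2 scale (SE 0.48, adjusted p = 0.0441 in edgeR). *PHOSPHO1*, the phosphatase that works beside *ALPL* in matrix vesicles, had an adjusted p of 0.868.

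The osteocyte genes of mineral and phosphate had differences of either sign. *DMP1* (100345183), an acidic matrix phosphoprotein, was at 81.9, 87.9, 135, 154 and 87.5 CPM in Perthes rabbits 1 to 5 and at 51.5, 81.6 and 163 CPM in the controls. Controls 1 and 2 were the lowest of the 8 rabbits and control 3 the highest. A log2 fold change of 0.15 resulted, with an SE of 0.38, a 95% interval of -0.70 to 0.99 and an adjusted p of 0.817 (edgeR), and it was -0.011 without Perthes rabbit 4 and -0.16 without control rabbit 1.

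*PHEX* (100346144), an endopeptidase of osteoblasts and osteocytes that holds down *FGF23*, had the narrowest spread of the 10 genes in the Perthes rabbits, a coefficient of variation of 9.87%. It was at 238, 231, 293, 262 and 274 CPM in Perthes rabbits 1 to 5 and at 93.6, 124 and 244 CPM in the controls. Control rabbits 1 and 2 were far below all Perthes rabbits, and control rabbit 3 lay above Perthes rabbits 1 and 2. In edgeR the log2 fold change was 0.75 with an SE of 0.30 and a 95% interval of 0.082 to 1.43, the unadjusted p was 0.0317 and the adjusted p 0.117. The exact permutation test gave p = 0.107. Without control rabbit 3 the log2 fold change was 1.25 with an adjusted p of 0.0217 from edgeR, and over all alternatives the adjusted p ran from 0.0217 to 0.331.

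*MEPE* (100343666), a phosphoglycoprotein of mature osteocytes, was at 61.4, 35.6, 42.8, 49.5 and 45.8 CPM in Perthes rabbits 1 to 5 and at 48.6, 52.9 and 126 CPM in the controls. Control rabbit 3 was far above all others, and the rest overlapped. Its log2 fold change of -0.69 had an SE of 0.32, a 95% interval of -1.41 to 0.032 and an adjusted p of 0.173 (edgeR), and it went to -0.11 without that control.

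*IBSP*, *DMP1* and *MEPE* belong to the SIBLING family of acidic phosphoproteins, whose genes lie side by side. In the RefSeq annotation of mOryCun1.1 the order of the protein-coding genes is *SPP1*, *MEPE*, *IBSP*, *DMP1* and *DSPP*, with no other between them. The log2 fold changes of the 4 that were tested ran from -0.69 for *MEPE* through 0.15 for *DMP1* and 0.90 for *SPP1* to 1.23 for *IBSP*. *SPP1* (osteopontin), which macrophages and osteoclasts express as well as osteoblasts, was higher in all 5 Perthes rabbits, at 1583 to 3067 CPM, than in the controls, at 436 to 1431 CPM (SE of the log2 fold change 0.41, adjusted p = 0.171 in edgeR). Of these 4, edgeR called 0, with 1 at an unadjusted p below 0.05, and DESeq2 called 1.

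Among 12 further genes of osteocytes and their dendrites, all tested, 1 was called higher and 0 lower. The log2 fold change was above 0 in 11 of them, with a median of 0.81 against 0.025 over all tested genes, and DESeq2 called 5 higher. The called gene was *CAPG*, an actin-capping protein that macrophages also express, which rose by 2.21 on the log2 scale (SE 0.45, adjusted p = 0.0166 in edgeR). *PDPN* (podoplanin), a marker of early osteocytes that is also made by stromal and lymphatic cells, was at 17.6 to 70.7 CPM in the Perthes rabbits, with rabbit 4 the highest, and at 8.64 to 14.5 CPM in the controls. The groups did not overlap for *PDPN*, and its adjusted p was 0.0644 in edgeR.

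The late osteocyte product *SOST* (100356489) was at 24.7, 47.4, 53.6, 13.5 and 33.6 CPM in Perthes rabbits 1 to 5 and at 45.5, 47.8 and 74.7 CPM in the controls. Perthes rabbits 1, 4 and 5, the ones low in *BGLAP*, were below every control, while rabbits 2 and 3 were within their range. Perthes rabbits averaged 34.6 CPM (SD 16.4, n = 5) and controls 56.01 CPM (SD 16.2, n = 3). The difference was -0.70 on the log2 scale, with an SE of 0.40, a 95% interval of -1.60 to 0.21 and an adjusted p of 0.262 (edgeR). The direction was the same in all alternatives, with adjusted p-values from 0.178 to 0.548.

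Receptors of sclerostin and regulators of *SOST* were without a call. Of 10 genes 8 were tested, and both edgeR and DESeq2 called 0, with 1 at an unadjusted p below 0.05 in edgeR. The log2 fold change was above 0 in 6, with a median of 0.10. The highest in mean CPM was *PTH1R*, the receptor of parathyroid hormone, which averaged 290.02 CPM (SD 207, n = 5) in the Perthes group against 189.9 CPM (SD 34.1, n = 3). *LRP4*, a receptor of sclerostin, averaged 239 CPM (SD 74.6, n = 5) against 226 CPM (SD 63.2, n = 3). In edgeR *PTH1R* had an adjusted p of 0.431 and *LRP4* one of 0.869.

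*FGF23* (100343050), the phosphate-lowering hormone, was far higher in 1 rabbit than in the other 7. Perthes rabbit 4 had 1421 counts, and the other Perthes rabbits had 57, 53, 27 and 46. The controls had 47, 102 and 41 counts. In CPM, rabbit 4 was at 51.7, which is 29.6-fold the median of the other Perthes rabbits, and held 88.9% of the Perthes level. The remaining 7 rabbits lay between 0.991 and 3.60 CPM, and control rabbit 2 was the highest of them. Its log2 fold change of 2.39, with an SE of 1.44, a 95% interval of -0.86 to 5.64 and an adjusted p of 0.285 (edgeR), turned to -0.45 without Perthes rabbit 4 (adjusted p = 0.483).

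Of 10 further genes of the phosphate and vitamin D axis around *FGF23*, 7 were tested, and 1 was called higher and 1 lower. *FURIN*, a protease that cuts FGF23 among many other targets, rose by 0.94 on the log2 scale (SE 0.21, adjusted p = 0.0208 in edgeR). It averaged 193 CPM (SD 34.9, n = 5) after surgery against 100.4 CPM (SD 16.7, n = 3). *KL* (klotho), the co-receptor of FGF23, had few counts and fell by 1.75 on the log2 scale (SE 0.41, adjusted p = 0.0243 in edgeR), with 0.398 CPM (SD 0.166, n = 5) and 1.35 CPM (SD 0.291, n = 3). *FGFR1*, a receptor of FGF23, had a log2 fold change of 0.033 with an SE of 0.25 (adjusted p = 0.939 in edgeR).

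Because a ratio of 2 genes within a library hardly depends on scaling, all 45 pairs of the 10 genes were compared by their log2 ratio in each rabbit. The groups did not overlap for 9 pairs, below the 26.8% of all pairs of tested genes for which they did not, so this count is no result about the 10 genes. In each of the 9 *IBSP* or *PHEX* was the gene that was relatively higher in the Perthes rabbits. For these 9 the exact two-sided permutation test gave p = 0.0357, the smallest that 5 rabbits against 3 allow, and the adjusted p over the 45 pairs was 0.179. No pair passed, and at least 33 of the 45 would have to be at that smallest p for any to pass. *IBSP* against *MEPE* had log2 ratios of 3.81, 4.06, 4.37, 5.14 and 4.36 in Perthes rabbits 1 to 5 and of 2.25, 2.55 and 2.56 in the controls. The controls had an SD of 0.18 (n = 3), and the ratio was 3.72-fold higher in the Perthes group. *PHEX* against *MEPE* was at 1.95, 2.70, 2.77, 2.40 and 2.58 in the Perthes rabbits and at 0.94, 1.23 and 0.95 in the controls, 2.71-fold higher. The ratio of *IBSP* to its genomic neighbour *DMP1* was 2.10-fold higher, with log2 ratios of 3.16 ± 0.39 (SD, n = 5) against 2.09 ± 0.15 (SD, n = 3). In both *MEPE* pairs and in the *DMP1* pair, control rabbit 3 lay with the other controls, although it was the highest of them in each of these genes taken alone. By a small margin it was still the highest control for *IBSP* against *MEPE* (2.557, next control 2.549) and *IBSP* against *DMP1* (2.188, next control 2.163). In the other pairs of the 9, those with *MEPE* or *DMP1* aside, it was the highest control as well. For *IBSP* against *ALPL* it was at 1.26, with the other controls at 0.017 and 0.48. For *PHEX* against *SP7* it was at 0.73, with the others at 0.16 and -0.24. The 9 pairs were picked because the groups did not overlap, so in none could it lie among the Perthes rabbits.

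**Figure D3:**
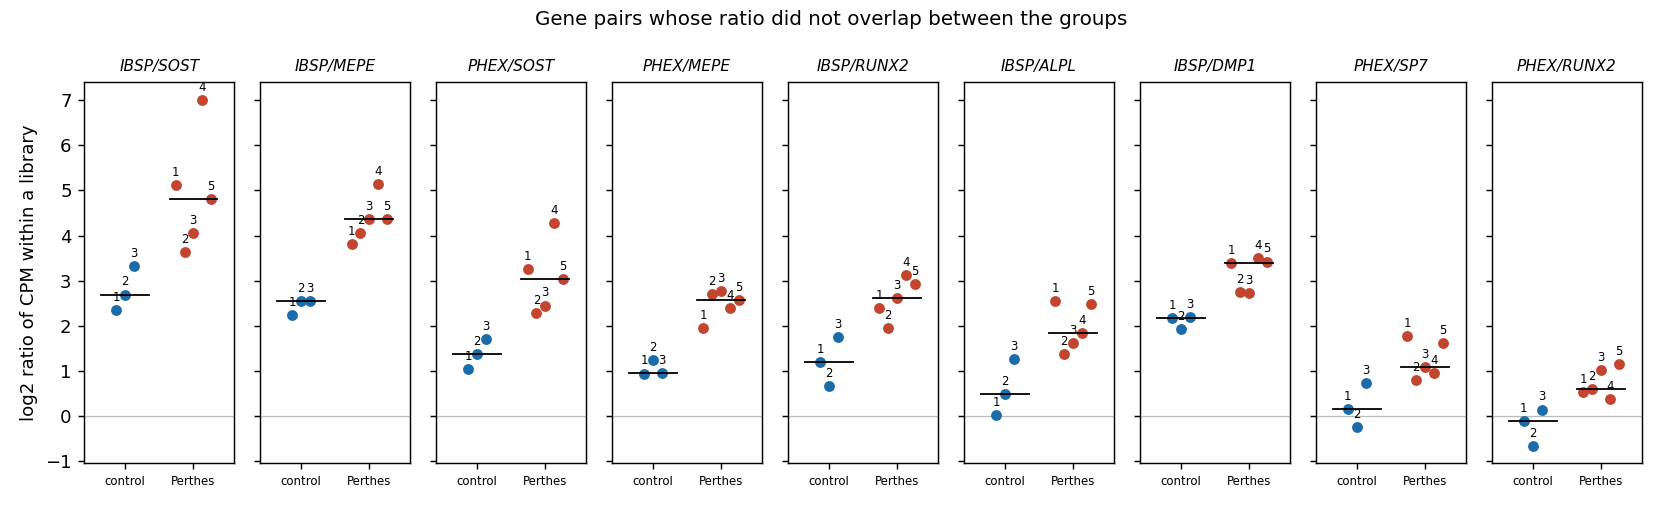
Log2 ratio of 2 genes within each library for the 9 of 45 pairs whose groups did not overlap, in controls (blue) and Perthes rabbits (red), with a line at each group's median and the rabbit's number beside each point. In each panel every red point lies above every blue one, with an adjusted p of 0.179 over the 45 pairs, and 26.8% of all pairs of tested genes are apart in the same way.

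Single rabbits were at the edge of their group for many of these genes. Control rabbit 3 was the highest control for 8 of the 10 genes, the exceptions being *BGLAP* and *FGF23*, and control rabbit 1 was the lowest control for 7. Perthes rabbit 4 was the highest Perthes rabbit for 5 genes (*RUNX2*, *ALPL*, *IBSP*, *DMP1* and *FGF23*) and the lowest for 2, *BGLAP* and *SOST*. Against the median of the other Perthes rabbits it was at 2.43-fold for *ALPL*, 2.00-fold for *IBSP*, 0.286-fold for *BGLAP* and 0.333-fold for *SOST*. It was at 1.02-fold for *PHEX* and 1.12-fold for *MEPE*, inside the range of the other Perthes rabbits for both.

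Markers of some other cell types moved with the groups or with these rabbits. Hypertrophic chondrocytes express *RUNX2*, *SP7*, *ALPL* and *IBSP* too. Of their 7 markers, which include *SPP1* and *PTH1R*, all were tested and edgeR called 0, with 1 at an unadjusted p below 0.05 and 1 called by DESeq2. All were above 0 with a median log2 fold change of 0.90, and their sum was 4051 to 13695 CPM in Perthes rabbits and 1943 to 5580 CPM in controls. The defining marker *COL10A1* was at 1548, 434, 2121, 7774 and 775 CPM in Perthes rabbits 1 to 5 and at 906, 253 and 2851 CPM in the controls, so that Perthes rabbit 4 and control rabbit 3, the highest of their groups for *ALPL*, *IBSP* and *DMP1*, were also the highest for it. Their part in those levels was not tested. Of 12 cartilage markers, 9 were tested and 0 called by edgeR or DESeq2, with 2 at an unadjusted p below 0.05. All 9 were above 0, with a median log2 fold change of 1.01, and the sums, most of them *COL2A1*, were 35421 to 143584 CPM in Perthes rabbits and 47181 to 65675 CPM in controls.

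Fibroblast and periosteal markers were called higher in 4 of 8 genes, with sums of 14042 to 23626 CPM against 1272 to 7963 CPM, and control rabbit 3 was the highest control here too. Osteoclast markers were called higher in 3 of 10, macrophage markers in 4 of 6, and neither had a gene called lower. *ACP5*, the defining osteoclast marker, was not among the called ones. It was at 138 to 616 CPM in Perthes rabbits and 292 to 425 CPM in controls (log2 fold change 0.36, adjusted p = 0.592 in edgeR). The macrophage sum was 4979 to 6904 CPM in 4 Perthes rabbits, 719 CPM in rabbit 4 and 374 to 391 CPM in the controls. *GPNMB* (osteoactivin), which osteoclasts and osteoblasts express too, made up 76.6% to 84.1% of this sum in Perthes rabbits 1, 2, 3 and 5. Its share was 43.7% in Perthes rabbit 4 and 4.09% to 6.23% in the controls. *GPNMB* was at 314 to 5491 CPM in Perthes rabbits and 16.0 to 23.3 CPM in controls. The other 5 macrophage markers summed to 405 to 1413 CPM against 351 to 375 CPM, and *CD68*, the defining one, rose by 2.02 on the log2 scale (adjusted p = 0.0165 in edgeR). Neutrophil markers were called lower in 3 of 7 and erythroid markers in 1 of 7, with sums of 27.4 to 1802 CPM against 6751 to 22330 CPM and of 32.5 to 2260 CPM against 4817 to 5450 CPM. All 14 of these had an unadjusted p below 0.05, and DESeq2 called 7 neutrophil and 4 erythroid markers lower, 5 osteoclast, 5 fibroblast and 4 macrophage markers higher. With library totals edgeR called 6 neutrophil and 1 erythroid markers lower, and 3 fibroblast, 2 osteoclast and 2 macrophage markers higher. Markers of marrow stromal cells, adipocytes, endothelium and skeletal muscle had 0 calls in edgeR among the 6, 5, 7 and 3 genes tested, with 1, 0, 1 and 1 at an unadjusted p below 0.05, and DESeq2 called 1, an endothelial marker. *CXCL12*, the defining marker of marrow stromal cells, was at 467 CPM in Perthes rabbit 2, 178 CPM in rabbit 3 and 72.6 to 96.1 CPM in rabbits 1, 4 and 5, and at 359 to 601 CPM in the controls. The Perthes rabbits that were low in *BGLAP* and *SOST* were thus the lowest in *CXCL12* too. They were also the lowest Perthes rabbits for the bone collagen gene *COL1A1*, at 44666, 66399 and 75093 CPM in rabbits 1, 4 and 5 against 143897 and 126120 CPM in rabbits 2 and 3. The controls were at 72816, 90894 and 82141 CPM for *COL1A1*. Perthes rabbit 5 thus lay within the controls, and Perthes rabbits 2 and 3 lay above all of them. The part of these cell types in the levels of the 10 genes was not tested.

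**Figure D4:**
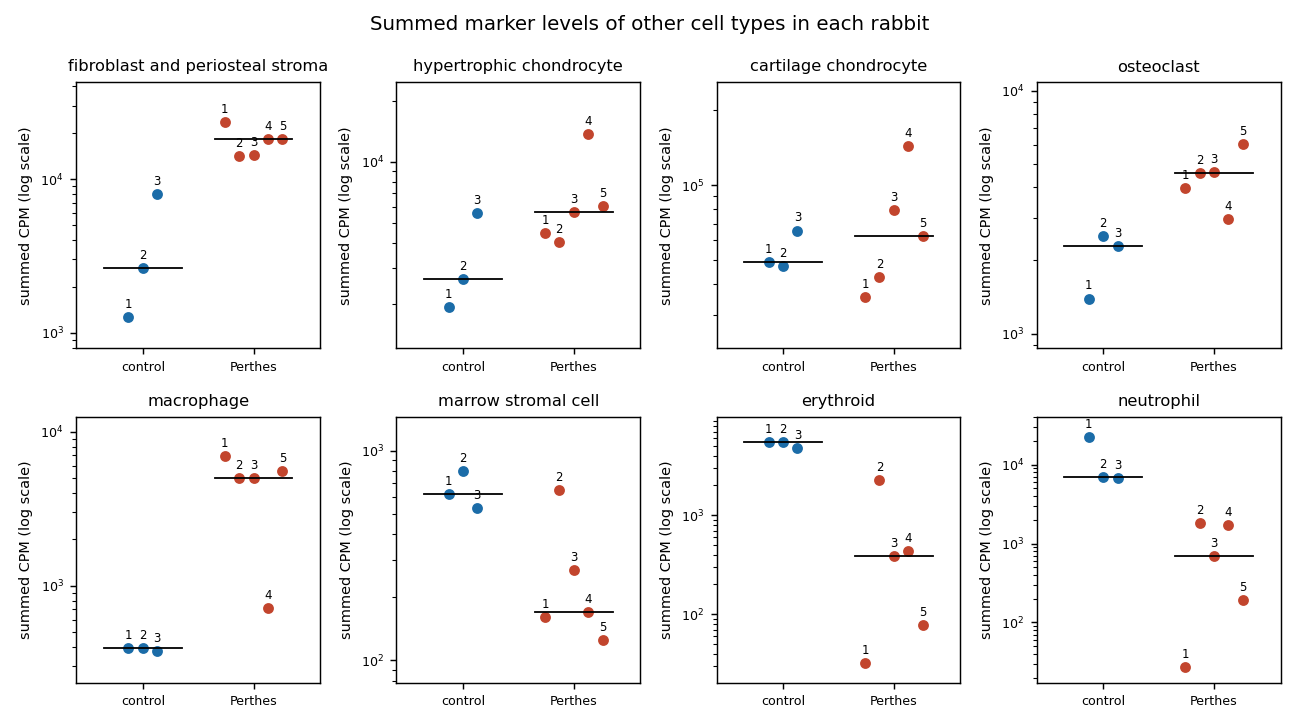
Summed CPM (log scale) of the markers of 8 other cell types in each control (blue) and Perthes rabbit (red), numbered by rabbit, with a line at each group's median. Fibroblast, osteoclast and macrophage sums lie higher and neutrophil and erythroid sums lower in all Perthes rabbits, and hypertrophic chondrocyte and cartilage sums peak in Perthes rabbit 4.

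Genes with the most similar profile over the 8 rabbits were found by the root mean square difference of log2 CPM, each gene centred on the mean of its group means. This measure is a description, and flat profiles also give a small value. For *RUNX2* the closest were *PDK1*, a kinase of pyruvate dehydrogenase, at 0.10 and *HOXD4*, a homeobox factor, at 0.12, where the median over all 15305 genes was 0.55. For *SP7* they were *AIF1L* at 0.11 and *CPE*, a carboxypeptidase, at 0.12. For *ALPL* they were *SLC13A5*, a citrate transporter, at 0.15 and *GALNT18* at 0.17. The closest to *IBSP* were *TMEM45A* at 0.18 and the glucose transporter gene *SLC2A1* at 0.19, with a median of 0.97 over all genes. *PHEX* was closest to *ITGA11*, a collagen-binding integrin subunit, at 0.16 and to *PCDHAC2* at 0.16, and *DMP1* to *AGPAT4* at 0.15 and *NDP* (norrin) at 0.20. For *BGLAP* the closest genes were *CD300LG*, of endothelium, at 0.24 and *VWA2* at 0.27. For *MEPE* they were *GAR1* and *RBM17*, both at 0.27, and for *SOST* the lymphocyte genes *THEMIS* and *IRF4* at 0.31 and 0.32. *FGF23* had no close match, with the chemokine gene *CXCL8* at 0.84 and *HPX* (hemopexin) at 0.87. Among the 10 genes themselves, *RUNX2* and *SP7* were the closest pair at 0.33, and *BGLAP* and *FGF23* the most distant at 2.48.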

How the data were processed

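Reads were filtered with SOAPnuke, mapped with HISAT2 2.0.4 and quantified with RSEM 1.1.17 and HTSeq 1.99.2 by the authors, who deposited expected counts per gene without normalization. Up to 10.7% of the values in a library were not whole, although those of the 10 genes were. Expected counts were rounded. The table holds 8 more columns with values identical to those used, which were left out, as was the small RNA table. edgeR 4.0.16 in R 4.3.3 was used with TMM factors, its filterByExpr filter and its quasi-likelihood test of 15305 genes. The standard error was the log2 fold change divided by the square root of F, and its 95% interval used the test's degrees of freedom. Log2 CPM used a prior count of 2. Exact permutation tests used scipy 1.17.1 under Python 3.11.15. DESeq2 1.42.0 was an alternative. The models were tested on simulated counts.

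The 10 genes and all lists were chosen with earlier results of these data known. Of each list, the text names at most the 4 called genes of largest change or, with none, the 2 of highest level, and the 2 genes nearest to each of the 10. *PMF1*, *PDPN*, *PHOSPHO1*, *FGFR1*, *IFITM5* and *GPNMB* were named outside this rule, after their values were seen, and 1 gene that it names is not reported here. The control whose title repeats replicate 2 was taken as rabbit 3 from the number in its code. Alternatives were other scalings and filters, DESeq2, a replicate block, stricter calls and leaving out each rabbit.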

Additional observations from a re-analysis of the deposited data

Results flagged for a closer look

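In each group of 5 Perthes rabbits, the gap of the highest or lowest rabbit to its nearest neighbour, as a share of the group's range, was compared with Dixon's critical value of 0.71 for the 10 genes and 11 marker sums. Of these 21 groups 4 were past it. The chance rate of about 1 in 20 holds for independent, normally distributed values, and these were linear CPM of the same 5 rabbits. The 4 are therefore not shown to be more than chance gives. *FGF23* in Perthes rabbit 4, at 51.7 CPM, had a gap of 0.980 of the range. The summed hypertrophic chondrocyte markers of the same rabbit, at 13695 CPM, had a gap of 0.789. Perthes rabbit 2 was past the value with its marrow stromal markers at 648 CPM (gap 0.726) and its erythroid markers at 2260 CPM (gap 0.817), both nearer to the controls than in the other Perthes rabbits.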

How the results depend on the processing

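None of the 10 genes was called by edgeR, and this held in all but 2 of the alternatives tried, stricter calls included. DESeq2 called 1 gene higher (*IBSP*), and the fits without 1 rabbit called from 0 to 2 higher, the 2 being *IBSP* and *PHEX* without control rabbit 3. The count of lower calls was 0 in all of them. Deviations from the group means correlated at -0.32, 0.16 and -0.24 between same-numbered rabbits and at -0.31 to 0.44 between the others. These values show no pairing by number, but so few of them cannot exclude one. With the replicate block, 0 of the 10 genes and 0 of the whole table were called, and 2 of the 10 had an unadjusted p below 0.05. The block fit had only 2 residual degrees of freedom, so its missing calls say little. Perthes rabbits 4 and 5, which have no control of the same number, add nothing to its group difference. Log2 fold changes reversed for *ALPL* (-0.055 with library totals, -0.23 with the replicate block, -0.28 without Perthes rabbit 4, -0.010 without control rabbit 1 and -0.030 without control rabbit 2), *DMP1* (-0.011 without Perthes rabbit 4 and -0.16 without control rabbit 1), *RUNX2* (0.077 without control rabbit 3) and *FGF23* (-0.38 with the block and -0.45 without Perthes rabbit 4). Without 1 rabbit at a time they ran from -0.41 to 0.077 for *RUNX2*, -0.28 to 0.23 for *ALPL*, -0.16 to 0.72 for *DMP1* and -0.45 to 2.93 for *FGF23*. The other 6 genes had the same direction in all 14 alternatives. The cause of the reversals was not tested. Over the whole table edgeR called 951 genes higher and 1356 lower, DESeq2 1720 and 1916, and the fits without 1 rabbit from 0 to 1267 and from 0 to 1628, with 0 of either without control rabbit 2 and 73 and 184 without control rabbit 1. Without Perthes rabbit 3 they were 385 and 646, and without Perthes rabbit 5 351 and 550. DESeq2 gave no adjusted p for *FGF23*. With a prior count of 0.5 the groups again did not overlap for 9 pairs, and the count of 0 past the threshold could hardly move, since 33 pairs would have to reach the smallest p. Pairs were not recomputed without each rabbit, since 4 against 3 and 5 against 2 allow no p below 0.0571 and 0.0952. The number of rabbits limits the precision, and for *FGF23* so does the depth, with 27 to 102 counts in 7 libraries.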
